A study of Arabidopsis thaliana with 10 samples.

Results

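The 36 genes described here read highest in Arabidopsis thaliana leaves on the last day of a growth series, in both plant lines. They were chosen by measured values. A probe set that names 1 gene was taken when, in each line, its day 12 value lay above those of days 1, 2, 7 and 8 by 1 or more on the log2 scale and its day 2 value differed from day 1 by less than 1. A log2 step of 1 is a 2-fold difference. Of the 22746 probe sets measured, 13513 name 1 gene, and 36 of these met the rule, each for a different gene. AT3G13610, CHI, PDF1.2, PDF1.2b, AT2G43590, PRX52, Prx37 and the GLR genes were barred by name, and the bar removed 0 probe sets that met the rest of the rule. Since the day 12 values chose the genes, their excess on day 12 is given as a description with no test.

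The arrays came from pooled leaves of the Columbia accession. The 35S:PAP1 line, labelled Pap, expresses the MYB transcription factor PAP1 from the viral 35S promoter, which is active in most tissues. The other line, labelled Hex, was read as the empty vector control. Neither the age of the plants nor the number pooled is given in the sources used here. Each line has 1 array on each of days 1, 2, 7, 8 and 12, 10 arrays in all, and no line was repeated within a day. By the series text, day 1 was taken as growth at 22 °C and 440 µmol m-2 s-1 of light, and days 2 and 7 as a warm dim regime of 30 °C by day and 150 µmol m-2 s-1. Days 8 and 12 were read as a cool bright regime of 15 °C and 440 µmol m-2 s-1, given to both lines. On this reading day 8 lies early and day 12 late in the cool bright regime. Day, plant age, temperature and light cannot be told apart in this design.

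Leaves moved into the cold respond in stages. Cold-regulated genes such as COR15A rise early through the CBF transcription factors, while other transcripts change only after days of cold growth, among them genes for sugar metabolism, cell walls and defence. Bright light and cold also favour anthocyanins, the red pigments whose genes PAP1 activates. Of the 36 genes, 4 carry a gene symbol in the tables used here. UGT73D1 is named as a UDP-glucosyl transferase, an enzyme class that attaches glucose to small molecules. SBT3.3 is a subtilisin-like protease known in Arabidopsis for its part in immune priming. BGLU31 is named as a beta glucosidase, a class that removes glucose from such conjugates, and CYP71B23 as a cytochrome P450, a class of oxidising enzymes. The other 32 are named by their locus alone, and no function is given for them here.

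Some arrays stood apart from the rest. Spiked poly-A controls had a median of 3.8 (Hex) and 3.7 (Pap) on day 7, while the other 8 arrays gave 6.65 to 7.4. The Pap day 2 array had a 25S ribosomal RNA signal of 9.7, beside 4.7 to 6.7 elsewhere, and the actin 5′ minus 3′ difference, which falls as RNA breaks down, was -2.5 there and -1.5 to -1.2 elsewhere. Applied without the Pap arrays of days 2 and 7, the rule would take 45 genes, all 36 among them. Of 24 cell type markers, 5 had a usable probe set. The leaf gene RCA read 13.6 to 13.8, the root genes PYK10 and EXPA7 4.1 to 5.1 and 3.5 to 3.9, and the seed coat gene BAN 3.3 to 3.7. FAMA, a guard cell gene, read 5.5 and 5.9 on the day 12 arrays of Hex and Pap, against 6 to 6.6 on the other arrays. Its part in the results below was not tested. In pooled leaf RNA, fewer cells of a type and less RNA per cell cannot be told apart.

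Across the 36 genes, the Hex arrays had medians of 5.65, 5.55, 5, 5.15 and 7.25 on days 1, 2, 7, 8 and 12. The Pap arrays had medians of 5.3, 4.95, 4.75, 4.7 and 6.7. The medians were thus level or slightly lower over the earlier days and high on day 12 in both lines. Single genes differed from this course, since 7 of the 36 read higher on day 7 than on day 1 in Hex and 2 did so in Pap. On day 12 they ranged from 5 to 10.4 in Hex and from 4.5 to 10.1 in Pap. The day 12 excess, the day 12 value minus the highest of days 1, 2, 7 and 8 in the same line, had a median of 1.7 in Hex (range 1 to 2.6) and 1.35 in Pap (range 1 to 2.8). It was larger in Hex for 20 genes, larger in Pap for 13 and equal for 3. Taking the smaller of the lines' excesses for each gene, 24 genes reached 1.2, 13 reached 1.7 and 5 reached 2.

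**Figure D1:**
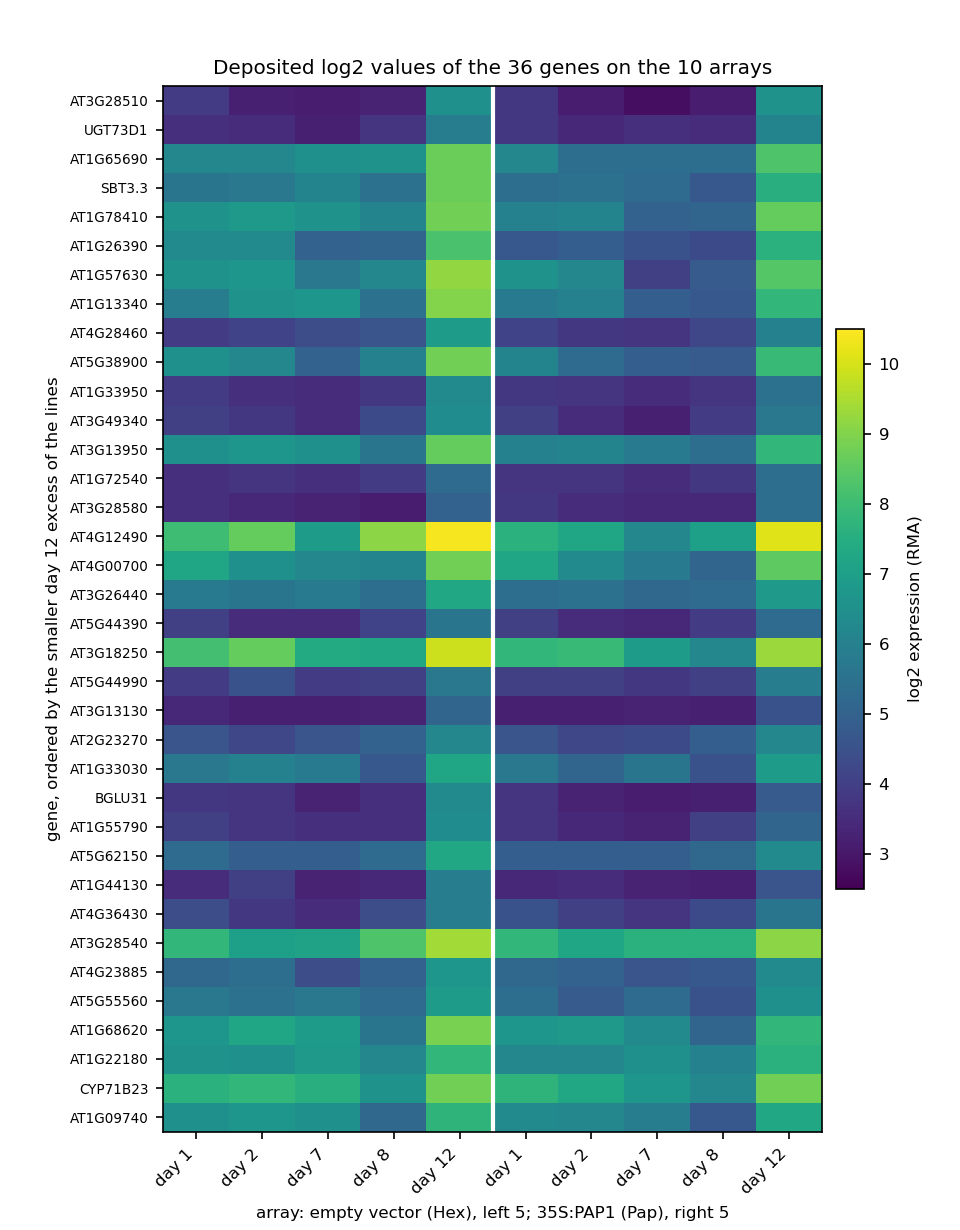
Each row is 1 of the 36 genes and each column 1 array, Hex at left and Pap at right, by day. Colour gives the deposited log2 expression, and the day 12 columns, with medians of 7.25 and 6.7, are the brightest of their line in every row.

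The lowest values before day 12 fell mostly on days 7 and 8. In Hex, day 7 was the lowest of the earlier days for 18 genes and day 8 for 15, ties counted for both. In Pap these numbers were 18 and 17. The highest of the earlier days was most often day 1, for 13 genes in Hex and 20 in Pap. Day 8, read as the same cool bright regime as day 12, lay below day 12 by a median of 2.25 in Hex and 2 in Pap. Day 1 lay below day 12 by a median of 1.95 in Hex and 1.55 in Pap.

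Part of the 36 genes stayed near the floor of the array until day 12. Values of 3.9 or less, the highest reading of BAN and EXPA7, were treated as dim. All 8 earlier arrays were dim for 7 genes, AT3G28510, UGT73D1, AT1G33950, AT3G28580, AT1G72540, AT3G13130 and BGLU31, so their excesses are lower bounds. A further 7 genes had at least 1 dim array before day 12, and 22 had none. No gene was dim on either day 12 array.

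AT3G28510 had the largest excess of the smaller line. It read 3.9, 3.2, 3.1, 3.3 and 6.5 on days 1, 2, 7, 8 and 12 in Hex, and 3.8, 3.1, 2.8, 3.1 and 6.6 in Pap. Day 12 stood above the highest earlier array of the same line by at least 2.6 in Hex and 2.8 in Pap, or 6.06-fold and 6.96-fold, and both day 12 arrays lay above all 8 others. UGT73D1 followed, with 3.6, 3.5, 3.2, 3.7 and 5.9 in Hex and 3.8, 3.4, 3.6, 3.5 and 6.1 in Pap. Its readings were dim and level on all earlier days in both lines, and its excess was at least 2.2 (Hex) and 2.3 (Pap).

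Other genes with a large excess were well above the dim limit from the start. AT1G65690 read 6.2, 6.2, 6.5, 6.6 and 8.7 in Hex and 6.2, 5.4, 5.4, 5.4 and 8.3 in Pap. The lines parted between days 1 and 2 and came closer again on day 12, with an excess of 2.1 in each. SBT3.3, the subtilisin-like protease, read 5.6, 5.7, 6.1, 5.5 and 8.7 in Hex and 5.4, 5.5, 5.3, 4.7 and 7.5 in Pap. Its excess was 2.6 in Hex and 2 in Pap, and both day 12 arrays stood clear of the 8 others. AT1G78410 read 6.6, 6.8, 6.6, 6.1 and 8.8 in Hex and 6, 6.1, 5, 5.1 and 8.6 in Pap. Here the lines differed by 1.6 on day 7 and by 0.2 on day 12.

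AT1G26390 differed between the lines from day 1 on. It read 6.3, 6.3, 5, 5.1 and 8.2 in Hex and 4.7, 4.9, 4.5, 4.3 and 7.6 in Pap. The Pap plants thus started lower and had the larger excess, 2.7 against 1.9. AT1G57630 read 6.6, 6.7, 5.7, 6.2 and 9.2 in Hex and 6.6, 6.2, 4, 4.8 and 8.4 in Pap. It dipped in both lines on day 7, further in Pap, before the day 12 peak. AT5G38900 read 6.5, 6.2, 5, 6 and 8.8 in Hex and 6.1, 5.3, 4.9, 4.8 and 7.9 in Pap, with its lowest value on day 7 in Hex and on day 8 in Pap. AT1G13340 read 5.9, 6.6, 6.7, 5.5 and 9 in Hex and 5.8, 6, 4.9, 4.7 and 7.8 in Pap, so that on day 7 Hex stood at its highest earlier value and Pap near its lowest.

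The last of the 12 genes with the largest excess were low before day 12. AT4G28460 read 3.9, 4.1, 4.4, 4.6 and 6.9 in Hex, climbing by small steps, and 4.1, 3.8, 3.7, 4.2 and 6 in Pap. AT1G33950 read 3.9, 3.6, 3.5, 3.8 and 6.3 in Hex and 3.8, 3.7, 3.5, 3.7 and 5.5 in Pap. AT3G49340 read 4, 3.8, 3.5, 4.3 and 6.4 in Hex and 4, 3.5, 3.2, 3.9 and 5.7 in Pap. In each of these the day 12 level was higher in Hex, by 0.9, 0.8 and 0.7.

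**Figure D2:**
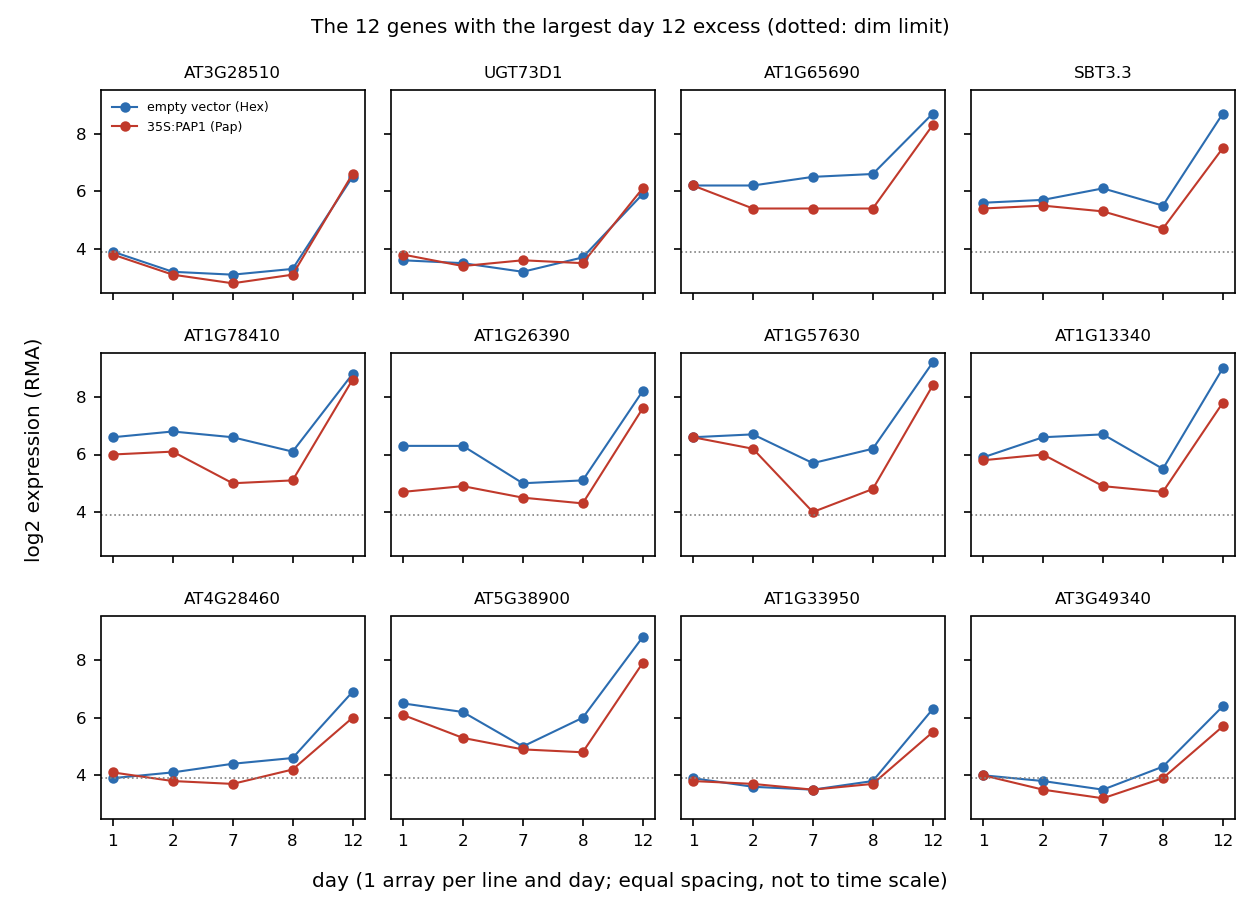
Log2 expression (vertical axis) by day (horizontal axis, evenly spaced) for the 12 genes with the largest smaller-line excess, 1 array per point. AT3G28510 and UGT73D1 stay at or below the dotted dim limit of 3.9 until day 12, and SBT3.3 reaches 8.7 in Hex and 7.5 in Pap.

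The other named enzymes lay near the lower limit of the rule. BGLU31 read 3.8, 3.7, 3.3, 3.6 and 6.3 in Hex and 3.7, 3.3, 3.1, 3.2 and 4.8 in Pap. Its excess was at least 2.5 in Hex and at least 1.1 in Pap, which is the widest gap between the lines' day 12 values among the 36. CYP71B23 read 7.6, 7.8, 7.5, 6.6 and 8.8 in Hex and 7.7, 7.3, 6.7, 6.2 and 8.8 in Pap. The lines met on day 12, and the excess was 1 in Hex and 1.1 in Pap. The highest member on day 12 was AT4G12490, with 8, 8.6, 6.9, 9.1 and 10.4 in Hex and 7.6, 7.2, 6.2, 7 and 10.1 in Pap.

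Further members kept clear levels on all days. AT3G18250 read 8.1, 8.6, 7.4, 7.3 and 9.9 in Hex and 7.8, 7.9, 6.9, 6.2 and 9.3 in Pap. AT4G00700 read 7.2, 6.5, 6.2, 6.1 and 8.8 in Hex and 7.2, 6.3, 5.8, 5.1 and 8.5 in Pap. Both read lower on days 7 and 8 than on day 1 and read highest on day 12, and in both lines the order was alike. AT3G13950 read 6.5, 6.7, 6.5, 5.6 and 8.6 in Hex and 6, 6.1, 5.8, 5.4 and 7.8 in Pap, with its lowest value on day 8. AT1G68620 read 6.7, 7.2, 6.9, 5.6 and 8.9 in Hex and 6.7, 6.8, 6.3, 5.1 and 7.8 in Pap, with the same low on day 8. Other genes stayed within a narrow range on the earlier days. AT3G26440 stayed between 5.2 and 5.8 on all 8 earlier arrays and read 7.3 in Hex and 6.8 in Pap on day 12. AT5G62150 stayed between 4.9 and 5.3 and then read 7.3 and 6.3.

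The step of 1 cuts through a continuous range. Besides CYP71B23, the members just inside were AT1G22180 with excesses of 1 (Hex) and 1.1 (Pap), AT1G68620 with 1.7 and 1, and AT1G09740 with 1 and 1. Just outside lay 7 probe sets with a smaller-line excess of 0.9, among them AT5G18470 with 1.5 and 0.9, CCOAMT with 0.9 and 1.4, and AT1G21520 with 1.3 and 0.9.

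The comparison between the lines asks whether these genes read differently with the PAP1 transgene. It was fitted over all 5 days with day as a block, and the rule sets no direction for it. The Pap minus Hex difference over all 5 days was below 0 for 32 of the 36 genes and above 0 for 3, with a median of -0.35 on the log2 scale. Over all 22746 probe sets the median was 0.02. Over the 18 members left when dim probe sets were left out it was -0.60. No member passed the adjusted threshold of 0.05 in limma in either direction, where 0.0659% of all probe sets were higher and 0.0132% lower in Pap. The smallest adjusted p among the members was 0.196. At an unadjusted p below 0.05 there were 20 members lower and 1 higher in Pap, which is 58.3% of the 36 beside 6.98% of all probe sets. The rule asks a like course over days of both lines, and the error of this test comes from how far those courses differ. The share may thus be partly built in, and it supports no statement about the members. Without the day block, where the day 12 excess adds to the error, there were 0 members and 316 of all probe sets.

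AT1G26390 had the smallest p, with differences of -1.6, -1.4, -0.5, -0.8 and -0.6 on days 1, 2, 7, 8 and 12. Its mean difference was -0.98 ± 0.18 (SE, 5 arrays per line), with an adjusted p of 0.196 in limma. AT4G12490 differed by -0.4, -1.4, -0.7, -2.1 and -0.3, a mean of -0.98 ± 0.26 (adjusted p = 0.496). Pap was the lower line on every day for both, and most clearly so on day 8 for AT4G12490. AT1G13340 had a mean of -0.90 ± 0.22 (adjusted p = 0.445) and AT1G57630 one of -0.88 ± 0.23 (adjusted p = 0.496). The 1 gene that read higher in Pap on all 5 days was AT3G28580, with 0.2, 0.1, 0.1, 0.3 and 0.4, a mean of 0.22 ± 0.085 (adjusted p = 0.677). Its differences before day 12 lie within the dim range.

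By day, the median Pap minus Hex difference of the 36 genes was -0.1, -0.35, -0.3, -0.35 and -0.4 on days 1, 2, 7, 8 and 12, beside 0 for all probe sets on each day. Pap lay below Hex for 19, 27, 27, 33 and 29 of the 36, and above Hex for 7, 4, 6, 2 and 5. Of all 22746 probe sets, 8434, 9244, 9342, 9307 and 7680 lay below on these days, and 10322, 10090, 10402, 9365 and 11144 above. Among the 36, 13 lay lower in Pap on all 5 days, a count that was not taken over all probe sets. The Pap day 2 and day 7 arrays are among those named above for their controls. The Hex day 7 array, also named there, was kept in the next fit. Without these Pap arrays the median difference was -0.37, and limma called 0 members and 0 of all probe sets. At an unadjusted p below 0.05 there were then 11 members and 1272 of all 22746 probe sets.

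**Figure D3:**
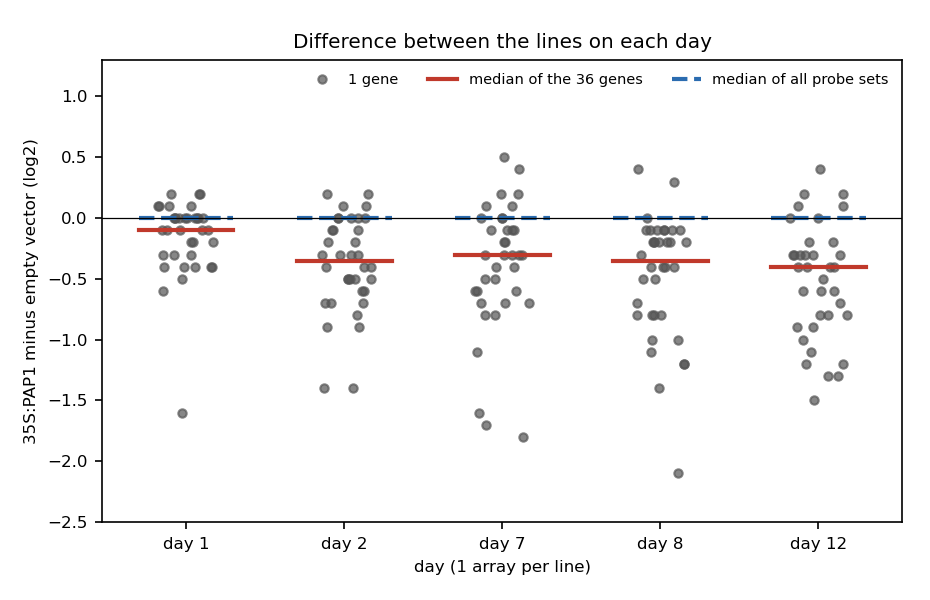
Each point is the Pap minus Hex difference of 1 of the 36 genes (log2) on 1 day, with the members' median as a solid line and the median of all probe sets as a dashed line. The members' medians run from -0.1 on day 1 to -0.4 on day 12, and those of all probe sets lie at 0.

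The day 12 difference between the lines was set against that of the other days on the 5 per-day differences. The rule used day 12 against the other days in each line, and a gene chosen for a large step has more room for a difference in that step, so the values below are a description. limma called 0 of the 36 genes, as it called 0% of all probe sets. At an unadjusted p below 0.05 there were 7 members (19.4%), all lower in Pap on day 12 relative to the other days, and 587 of all probe sets (2.58%). Since the rule used this step, the shares support no statement about the members. With low-mean probe sets left out there were 0 among the 18 members left, and their median departure was 0.05, against -0.09 for the 36. BGLU31 had the largest departure, with per-day differences of -0.1, -0.4, -0.2, -0.4 and -1.5. Its day 12 difference lay -1.23 ± 0.22 (SE) from the mean of the others. AT1G55790 read 4, 3.7, 3.6, 3.6 and 6.4 in Hex and 3.7, 3.4, 3.3, 4 and 5.1 in Pap, level and low until day 12 and then higher in Hex. AT1G44130 read 3.5, 4, 3.3, 3.4 and 5.9 in Hex and 3.4, 3.5, 3.3, 3.2 and 4.6 in Pap, with the same order. AT1G55790 departed by -1.18 ± 0.34 and AT1G44130 by -1.10 ± 0.25. All 8 readings of BGLU31 before day 12 were dim, as were 6 of AT1G55790 and 7 of AT1G44130, so most of their earlier differences lie within the dim range.

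The changes before day 12 ask whether the 36 genes had moved in the warm dim regime or early in the cool bright one. Each contrast rests on 2 arrays a day, 1 per line. The rule holds days 1, 7 and 8 each 1 or more below day 12 and sets no order among them. The contrasts share arrays, and each is given with its own values. The root marker PYK10 moved over the same days, with changes of 0.60 from day 1 to day 7 (adjusted p = 0.0423) and -0.80 from day 7 to day 8 (adjusted p = 0.00648), while EXPA7 stayed dim. Its part in the members' changes was not tested.

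From day 1 to day 7, 7 of the 36 genes fell and 0 rose, where limma called 5.23% of all probe sets lower and 4.42% higher. At an unadjusted p below 0.05, 13 members were lower and 0 higher, which is 36.1% of them beside 25.9% of all probe sets (3145 lower and 2735 higher). The median change was -0.33 for the members and -0.05 for all probe sets. AT1G57630 fell most, from 6.6 in both lines to 5.7 in Hex and 4 in Pap, a change of -1.75 ± 0.37 (adjusted p = 0.0289). AT5G38900 changed by -1.35 ± 0.25 (adjusted p = 0.0211) and AT4G00700 by -1.20 ± 0.23 (adjusted p = 0.0210). AT4G00700 went from 7.2 in both lines to 6.2 in Hex and 5.8 in Pap.

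The other 4 that fell did so by 0.9 or less. AT3G18250 changed by -0.80 ± 0.19 (adjusted p = 0.0420), from 8.1 and 7.8 to 7.4 and 6.9 in Hex and Pap. AT4G36430 and AT5G44390 changed by -0.85 and -0.55, and since both ended in the dim range these are lower bounds. AT3G28510 changed by -0.90 ± 0.14 (adjusted p = 0.0126) between values that were all at or below the dim limit. The day 7 arrays are those with the low poly-A controls, whose part in these changes was not tested. Without the Pap arrays of days 2 and 7, limma called 0 members and 0 of all probe sets for this contrast. At an unadjusted p below 0.05 there were then 8 members and 6086 of all probe sets, and the members' median was still -0.33. Fewer members, and fewer of all probe sets, than in the main fit were called when any 1 array was left out. The members' median was then -0.41 without the Hex day 1 array and -0.275 without the Pap day 1 array. It was -0.33 without the Hex day 7 or the Pap day 7 array.

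From day 1 to day 8, 9 genes fell and 0 rose, beside 8.01% of all probe sets lower and 5.81% higher. At an unadjusted p below 0.05, 15 members were lower and 1 higher, which is 44.4% of them beside 27.2% of all probe sets (3474 lower and 2712 higher). The median change was -0.33 for the members and 0 for all probe sets. The members' median was -0.18 without the Pap day 1 array. It was -0.775 over the 18 members left when low-mean probe sets were left out. AT4G00700 had the largest fall, with a change of -1.60 ± 0.23 (adjusted p = 0.00466), reaching 6.1 in Hex and 5.1 in Pap. AT1G09740 changed by -1.45 ± 0.14 (adjusted p = 0.00157), from 6.5 and 6.3 to 5.2 and 4.7. CYP71B23, the cytochrome P450, changed by -1.25 ± 0.22 (adjusted p = 0.0107). For each of these genes both lines read lower on day 8 than on day 1, and the highest values came on day 12.

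AT1G68620 changed by -1.35 ± 0.23 (adjusted p = 0.00977) and AT1G33030 by -1.10 ± 0.21 (adjusted p = 0.0140). AT3G18250 (-1.20), AT3G13950 (-0.75), AT5G55560 (-0.65) and AT3G28510 (-0.65) made up the rest. The readings of AT3G28510 on both days were all at or below the dim limit. Without the Pap arrays of days 2 and 7 limma called 3 members and 1792 of all probe sets, against 3143 of all in the main fit. Fewer members, and fewer of all probe sets, were called when 1 array of day 1 or day 8 was left out. The members' median was then -0.425 without the Hex day 1, -0.41 without the Hex day 8 and -0.375 without the Pap day 8 array.

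From day 7 to day 8, the members' calls were close to those of all probe sets. Of the 36, 5 rose and 6 fell, beside 11.3% of all probe sets higher and 12.5% lower, and the median change was 0.1 for the members and 0.05 for all probe sets. Over the 18 members left without low-mean probe sets it was -0.40. AT4G12490 rose most, from 6.9 and 6.2 to 9.1 and 7 in Hex and Pap, a change of 1.5 ± 0.41 (adjusted p = 0.0323). AT4G36430 rose by 0.75 ± 0.16 (adjusted p = 0.0132), from 3.5 and 3.7 to 4.4 and 4.3, and AT3G49340 by 0.75 ± 0.17 (adjusted p = 0.0178). AT5G44390 rose by 0.55 and AT2G23270 by 0.50. The day 7 readings of AT4G36430 were dim in both lines, so its rise is a lower bound. AT3G49340 and AT5G44390 were dim on day 7 in both lines, and in Pap on day 8 as well. Only their Hex day 8 values, 4.3 and 4.1, lay above the dim limit, so their Hex rises are lower bounds. The changes given for them average both lines.

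The 6 that fell from day 7 to day 8 were all well above the dim limit. AT1G09740 read 6.5 and 5.9 on day 7 and 5.2 and 4.7 on day 8 in Hex and Pap, a change of -1.25 ± 0.14 (adjusted p = 0.00112). AT1G68620 read 6.9 and 6.3, then 5.6 and 5.1, a change of -1.25 ± 0.23 (adjusted p = 0.00759). AT1G33030 changed by -1.10 ± 0.21 (adjusted p = 0.00832). The drop came in both lines for each of these genes. AT3G13950, AT5G55560 and AT1G22180 changed by -0.65, -0.60 and -0.55. Fewer than these 11 members, and fewer of all probe sets, were called when 1 array of day 7 or day 8 was left out. The same held without the Pap arrays of days 2 and 7. The members' median was 0.04 and 0.15 without the Hex and the Pap day 7 array. It was 0.1 and 0.05 without the Hex and the Pap day 8 array, and 0.175 without the Pap arrays of days 2 and 7.

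**Figure D4:**
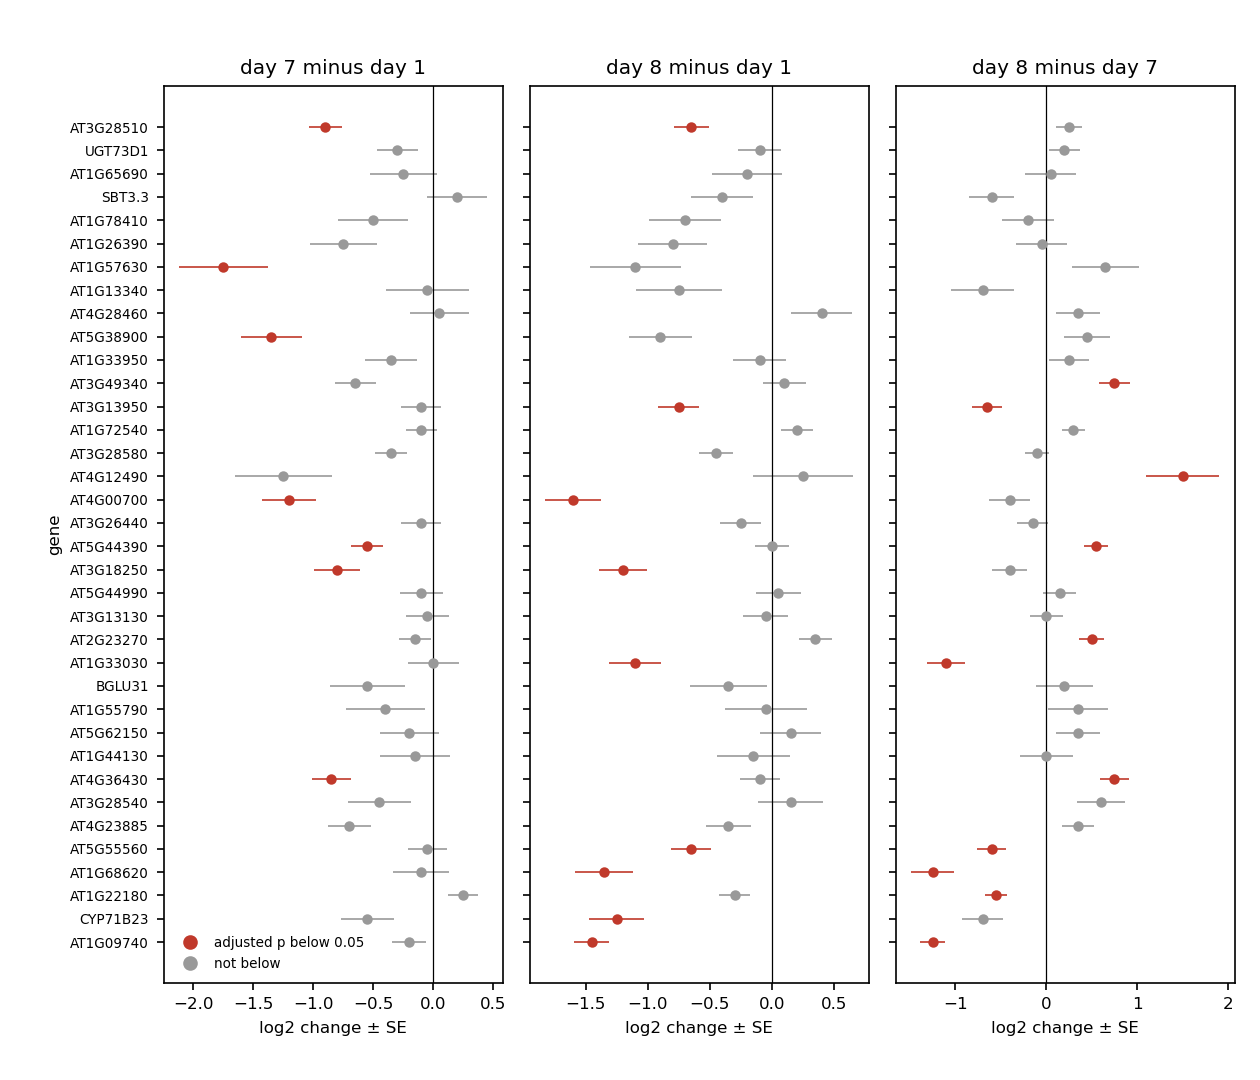
Log2 change ± SE from limma (horizontal axis) for each of the 36 genes (rows) in the contrasts between days 1, 7 and 8, with adjusted p below 0.05 in red. All 7 and 9 red points of the contrasts against day 1 lie below 0, and the step from day 7 to day 8 has 5 above and 6 below.

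Genes of known pathways serve as a reference for these courses. From 11 fixed lists (defence, cold, senescence, flowering, flavonoids, lignin, glucosinolates, sugar, phosphate and nitrogen), 25 of 176 genes could be used. None of the 25 was a member, and 2, WRKY6 and APL3, read highest on day 12 in both lines, by 0.2 and 0.3 and by 0.1 and 0.4 in Hex and Pap. On day 8 against day 1, 10 of the 25 rose and 0 fell, while 0 of the 36 members rose and 9 fell. Of all probe sets, 5.81% were higher and 8.01% lower. The rule bars genes whose day 8 value comes within 1 of day 12, and the lists were chosen with earlier results known. The difference between those counts is thus partly built in, and it was not tested.

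No cold-regulated gene used had its highest value on day 12 alone in either line. COR15A, which encodes a protein that protects chloroplast membranes in the cold, read 9.7, 7.6, 8.7, 13.3 and 11.4 in Hex and 8.9, 6.5, 9.9, 13.5 and 11.7 in Pap. It rose by 4.10 ± 0.49 from day 1 to day 8 (adjusted p = 0.00281) and lay lower on day 12 than on day 8 in both lines. Of the 5 cold-regulated genes used, 4 rose from day 1 to day 8. COR47, 1 of these 4, had already risen by day 7, by 2.45 ± 0.18 (adjusted p = 0.00206). It changed by -0.55 from day 7 to day 8 (adjusted p = 0.0644), over which 3 of the 5 rose. LTI30, a dehydrin gene, read 10.8 on days 8 and 12 in Hex and 10.9 and 10.2 in Pap. Of the 6 flavonoid and anthocyanin genes, 2 rose from day 1 to day 8, and the median day 12 excess of the 6 was -2.2 in Hex and -1.45 in Pap. The members thus differed in day of peak from both lists, as the rule requires of them.

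The salicylate and systemic resistance list could be read through 2 of its 28 genes. SAG101, a partner of the immune regulator EDS1, read 5.5, 6.1, 6.2, 5.4 and 7.1 in Hex and 5.8, 6.5, 5.4, 4.9 and 6.4 in Pap, so its day 12 value was the highest in Hex alone. GRX480, a glutaredoxin, read 7.8, 9.4, 10, 9.4 and 10.2 in Hex and 7.8, 8, 7.2, 9 and 8.3 in Pap. Neither passed a test between the lines or between days 1, 7 and 8. In the senescence list 1 of 3 genes, SAG29, rose from day 1 to day 8, by 2.4 ± 0.39 (adjusted p = 0.00778). No gene of the phosphate or nitrogen list could be used.

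The 36 genes were also placed by their order along the chromosomes in the RefSeq gene table. They number 14, 1, 10, 5 and 6 on chromosomes 1 to 5. Each has at least 1 measured gene within 5 protein-coding genes on either side, and 3 members neighbour one another. On chromosome 3, AT3G28510 lies 3 gene positions before AT3G28540 and AT3G28580 lies 4 after it. AT3G28540 read 7.8, 7, 7.1, 8.3 and 9.4 in Hex and 7.8, 7.2, 7.6, 7.6 and 9.1 in Pap. AT3G28580 read 3.6, 3.4, 3.3, 3.1 and 5 in Hex and 3.8, 3.5, 3.4, 3.4 and 5.4 in Pap. AT3G28510 and AT3G28580 were dim before day 12 and AT3G28540 was not, and the peak on day 12 was common to all by the rule.

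The measured genes between them that are not members did not peak on day 12. AT3G28520, AT3G28530, AT3G28550 and AT3G28560 had day 12 excesses of -0.3, -0.6, -0.8 and -0.1 in Hex and -0.3, -0.6, -1 and -0.1 in Pap. Where neighbouring genes are close in sequence, probe sets can pick up each other's transcripts, and no probe sequence was used here to check this.

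Among 164 measured neighbours that are not members, 16 read highest on day 12 in both lines, which is 9.76%, beside 884 of the 13513 probe sets naming 1 gene (6.54%). By 0.5 or more it was 6 of them (3.66% beside 1.5%), and by 1 or more 2. SBT3.5, another subtilisin-like protease, lies 2 genes from SBT3.3 and read 6.7, 6.7, 5.1, 6.7 and 9.6 in Hex and 7.2, 5.8, 5.6, 6.4 and 8.9 in Pap. Its excess of 2.9 (Hex) and 1.7 (Pap) was of the size of that of SBT3.3, but its Pap day 2 value lay 1.4 below day 1, outside the rule. The adjacent AT1G32950 was dim until day 12 in both lines, with excesses of 0.5 and 0.2.

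AT1G26380, next to AT1G26390, read 5.7, 6.7, 5.5, 5.8 and 7.8 in Hex and 6, 4.9, 4.4, 4.2 and 7.1 in Pap. Its excess was 1.1 in each line, and its day 2 minus day 1 differences of 1 and -1.1 kept it out. AT4G12500, which lies 2 genes from AT4G12490, read 5.7, 7.1, 6.3, 7.3 and 8.2 in Hex and 4.9, 5.4, 4.8, 5.4 and 7.6 in Pap, an excess of 0.9 and 2.2. Around the named enzymes the neighbours varied. BGLU32, next to BGLU31, stayed at 2.8 to 3.1 on all arrays. CYP71B22, next to CYP71B23, read 6.3 and 5.8 on day 12 against 7.5 and 7.4 on day 1 in Hex and Pap. CYP71B24, which lies 2 genes from CYP71B23, read 6.8, 7.1, 6.8, 4.8 and 7.2 in Hex and 6.9, 6.9, 6.2, 4.9 and 7.2 in Pap. It was lowest on day 8 and highest on day 12 in both lines, with excesses of 0.1 and 0.3.

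**Figure D5:**
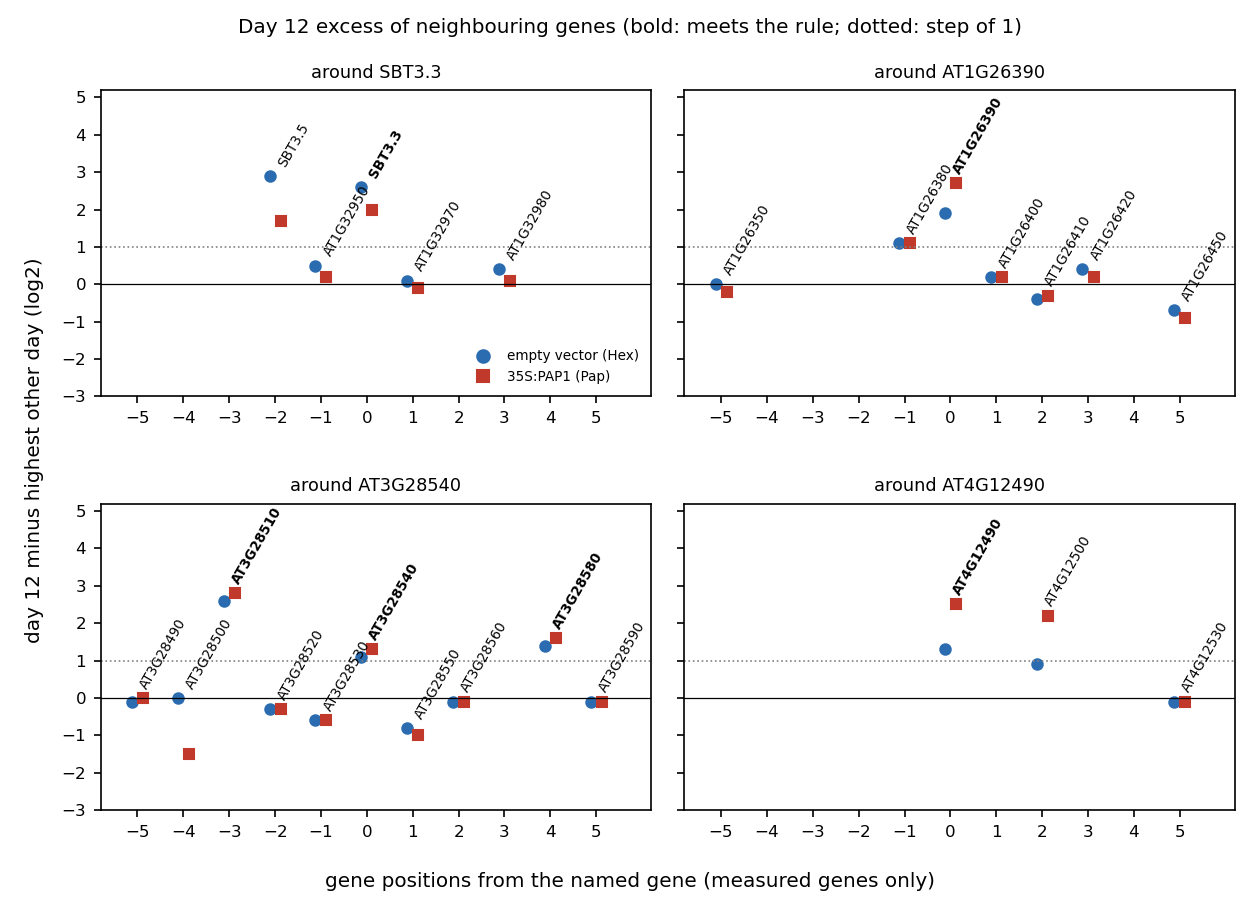
Day 12 excess (log2, vertical axis) of measured genes by their gene positions from SBT3.3, AT1G26390, AT3G28540 and AT4G12490 (horizontal axis), Hex as circles and Pap as squares. SBT3.5 reaches 2.9 and 1.7 beside SBT3.3, while the measured genes between AT3G28510 and AT3G28580, other than AT3G28540, lie below 0.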

How the data were processed

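Per the labels' protocols, total RNA of pooled frozen leaf tissue was labelled with biotin for Affymetrix arrays. The deposited table holds log2 expression, which the authors computed with RMA according to the submitters' processing notes. RMA subtracts background, brings all arrays to a common distribution and combines the probes of a set. Its version is not given in the sources used here. Values carry 1 decimal and no detection call. Array medians lay between 5.5 and 5.7. Precision is limited by the number of arrays. Of the per-sample columns, 0 were unused.

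The table lists 22810 probe sets, from which 64 array controls were removed. The probe table names 1 gene for 13513, several for 503, and does not list 8730. PAP1 has no probe set naming it alone, so the transgene's transcript is not analysed here. Models were fitted on all 22746 probe sets with limma 3.58.1 in R 4.3.3 (lmFit, eBayes), with line and day as factors (4 residual degrees of freedom), or on the 5 per-day line differences (3 degrees of freedom). Adjusted p-values are Benjamini-Hochberg values over all probe sets with a threshold of 0.05, and the script was tested on simulated data. The arrays of a day deviated together from the means of their lines (correlations of 0.52, 0.77, 0.49, 0.84 and 0.75 in day order), and day, given in the labels, was kept as a block. No label names separate plants or cultures, so the p-values reflect only how much these arrays vary, which may be technical.

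The members, the gene lists and the tests were chosen with earlier results of these data known. Any member may be named. Values per array were given for the 12 largest excesses, for up to 6 members per direction and test, and for those nearest the step of 1. Some other members, neighbours and BGLU31 were added after their values were seen, as was the dim limit of 3.9. A planned grouping by product description and a planned motif count in promoters were not run, since the tables used here hold neither. The files name no genome build, so the gene order of the reference table (TAIR10.1) was used and no coordinates are printed. Alternatives were array centring, leaving out low-mean probe sets, an intensity trend, no day block, leaving out arrays, and other steps of the rule.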

Additional observations from a re-analysis of the deposited data

Results flagged for a closer look

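In 2 genes the lines moved in opposite directions before day 12, by 0.5 or more each. From day 1 to day 7, AT1G13340 went from 5.9 to 6.7 in Hex and from 5.8 to 4.9 in Pap, so that the Pap change minus the Hex change was -1.7. From day 1 to day 8, AT4G12490 went from 8 to 9.1 in Hex and from 7.6 to 7 in Pap, again a difference of -1.7. Each value rests on 1 array, and neither difference was tested. Opposite signs of any size occurred in 7 of the 36 genes in each of these contrasts.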

How the results depend on the processing

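The count of members called stayed at 0 for the line effect and for line by day 12 under every alternative run. For line by day 12, limma called 0 of all probe sets in each of them as well. For the line effect it called 0 of all without a day 1 or a day 12 array, and without the Pap arrays of days 2 and 7. The most it called was 34 of all, with an intensity trend. With so few calls over all probe sets, the 0 for the members shows no stability. For day 7 minus day 1, the main count of 7 became 4 with low-mean probe sets left out. In that fit 18 of the 36 genes remained. The count became 0 without the Pap arrays of days 2 and 7, and 0 to 5 with 1 array left out. For day 8 minus day 1, 9 became 3 without those Pap arrays and 1 to 10 with 1 array left out. For day 8 minus day 7, 11 became 7 with low-mean probe sets left out. It became 2 without those Pap arrays, and 1 to 11 with 1 array left out. Fewer arrays leave fewer residual degrees of freedom, and beyond that the cause was not tested. Of the 27 single-gene calls, 2 passed with any 1 array left out, both for AT1G09740, and none of 395 values under alternatives changed sign. Centring each array on its median took the calls of day 7 minus day 1 over all probe sets from 1006 higher of 2196 to 783 of 2240, those of day 8 minus day 1 from 1322 of 3143 to 1611 of 3107, and those of day 8 minus day 7 from 2569 of 5423 to 3324 of 5518. The members called became 9, 10 and 9. Without the day block 8 probe sets in all passed for the line effect, against 18. A step of 0.8 gave 56 members, 1.5 gave 13, and the mean of the lines 75, of which the 36 were part except at 1.5. Centring gave the same 36. The rule without the Pap arrays of days 2 and 7, chosen after seeing the data, gave 45. Probe sets near the background, and the absence of replicates, limit what can be read from the dim genes.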

Other observations

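A further 42 probe sets had the same pattern, 41 of them not listed in the probe table and 1 naming several genes. Their median was 5.3, 5.4, 5, 5.15 and 7.25 on days 1, 2, 7, 8 and 12 in Hex, and 5.15, 5, 4.55, 4.6 and 6.75 in Pap. On day 12 Pap lay below Hex for 38 of them and above it for 0, beside 7680 below and 11144 above of all 22746 probe sets.

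With the limit on day 2 lifted, 131 probe sets read highest on day 12 by 1 or more in both lines, against 283 on day 8, 41 on day 2, 9 on day 7 and 6 on day 1. Lowest on day 12 were 7, and lowest on day 8 were 200. With that limit kept, 6 probe sets were lowest on day 12, of which 4 name 1 gene, beside the 78 that were highest.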
